A study of Mus musculus with 6 samples.

Results

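The lysosomal genes described here are 42 genes taken from a list of symbols. They are hydrolases, cathepsins, membrane proteins, subunits of the proton pump and the TFEB family of transcription factors. The list was set by gene name, though with earlier results of these data known. All 42 symbols were found, each once, among the 55487 genes of the deposited expression table. The cells were RM-1, a line of mouse prostate cancer, and the RNA libraries comprise 3 from cells given a Bhlhe22 overexpression lentivirus (Bhlhe22 cells) and 3 from cells given a blank lentivirus as control (Vector cells). All 6 libraries come from the 1 cell line and all cells carry a lentivirus. The labels give no promoter for the transgene and no time after infection. Nothing in them ties replicates to separate cultures, and p-values then measure only the spread between these samples, which may be technical. The comparison asks which genes differ when Bhlhe22, a basic helix-loop-helix transcription factor, is overexpressed.

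Lysosomes are acidic organelles in which hydrolases break down glycans, lipids and proteins that arrive by endocytosis or autophagy. A vacuolar proton pump (V-ATPase) acidifies them, heavily glycosylated membrane proteins line them, and the soluble enzymes reach them mostly through mannose 6-phosphate receptors. Transcription factors of the MiT-TFE family (Tfeb, Tfe3, Mitf), held in the cytoplasm by mTORC1, are known to activate many lysosomal genes through a short promoter sequence called the CLEAR element. Loss of single hydrolases causes lysosomal storage diseases.

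Counts summed to between 15464709 and 25129552 per library. Bhlhe22 had 0 counts in every Vector library and 8706 to 17995 in the Bhlhe22 libraries. Bhlhe22 replicate 1 stood apart from its group: its log2 CPM values correlated at 0.977 and 0.979 with the other two Bhlhe22 libraries, against 0.987 between those and 0.988 to 0.989 among the Vector libraries (across genes, which are not independent). Of the prostate and epithelial markers, Krt8 fell from 757 ± 14.5 to 545 ± 34.002 CPM (counts scaled to library size with TMM factors, edgeR adjusted p = 0.0047) and Krt18 stood at 609 to 757 CPM over the 6 libraries. Epcam was at 3.40 to 4.66 CPM and Cdh1 at 0 to 0.291 CPM, and Hoxb13, Krt5 and Pbsn had 0 counts in every library. The mesenchymal marker Vim was higher than either keratin and fell from 1658 ± 55.4 to 1322 ± 89.8 CPM (edgeR adjusted p = 0.023). Of the 8 mesenchymal markers, all tested, 2 were lower (25%, against 9.28% of all tested genes), 0 higher and 6 below the threshold (edgeR). Their log2 fold changes ran from -2.12 to 0.39, with 3 above 0. The part of these markers in the results on the lysosomal genes was not tested.

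Expression of the lysosomal set was much alike in both groups of cells, with 2 clear decreases and 6 small increases. Gusb (β-glucuronidase) and Arsb (arylsulfatase B), which both act in the breakdown of sulfated glycosaminoglycans, fell 1.62-fold and 1.52-fold. Mitf, Hexa, Scarb2, Cln3, Atp6v1h and Tfe3 rose by 1.20-fold to 1.35-fold. Of the 38 members that passed the filter on low counts, 8 (21.1%) passed the test (edgeR quasi-likelihood test, Benjamini-Hochberg threshold 0.05), against 19.6% of all 14663 tested genes, so the number of changes was near the background. By direction, 6 (15.8%) were higher against 10.4% of all tested genes, and 2 (5.26%) were lower against 9.28%. The median log2 fold change of the 38 was 0.05, beside 0.01 over all tested genes. In 19 of the 38 (50%) the CPM values of the groups did not overlap, as in 40.8% of all tested genes. In bulk RNA, fewer cells expressing a gene and less RNA per cell cannot be told apart.

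The 2 decreases and the 6 increases differed in how they held. Gusb and Arsb passed the threshold in each of the 6 fits that left out 1 library. The 6 increases passed it in 1 of these fits, the one without Bhlhe22 replicate 1, where Glb1 also passed (7 higher, 2 lower). The number of higher members was 0 without Vector replicate 1, 2 or 3 or without Bhlhe22 replicate 2 or 3 (edgeR, with 7 to 10 members higher at an unadjusted p under 0.05). Over all tested genes, the share past the threshold moved too. It was 19.6% with all 6 libraries, 9.05% to 14.9% in these 5 fits and 31.3% without Bhlhe22 replicate 1.

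**Figure D1:**
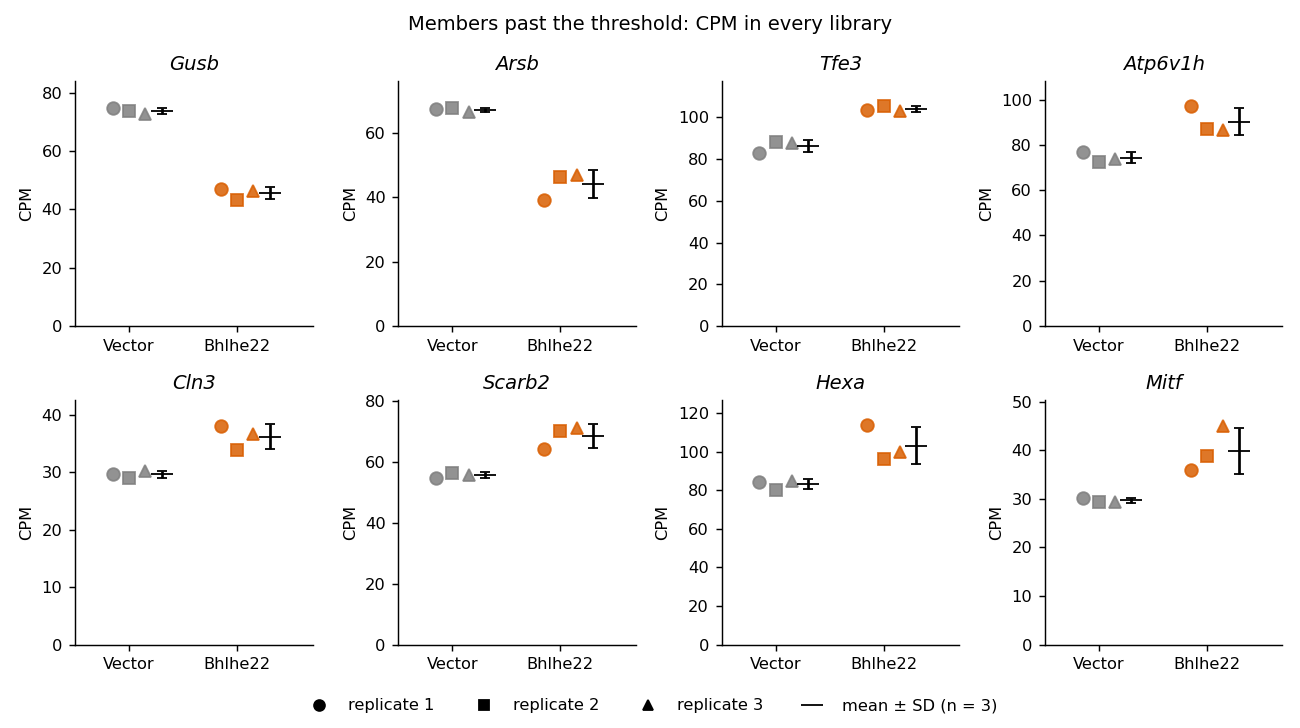
CPM in each of the 3 Vector (grey) and 3 Bhlhe22 (orange) libraries for the 8 members past the threshold, with the mean ± SD beside the points and each axis starting at 0. For Gusb the Vector values lie between 72.6 and 74.9 and the Bhlhe22 values between 43.2 and 47.1, while for the 6 higher genes the gap between groups is small beside their level.

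Enzymes that take apart glycans and glycosaminoglycans held both decreases. All 10 were tested: 1 rose, 2 fell and the other 7 stayed below the threshold. Gusb removes terminal glucuronic acid from heparan, dermatan and chondroitin chains. It stood at 74.9, 73.7 and 72.6 CPM in Vector replicates 1, 2 and 3 and at 47.1, 43.2 and 46.5 CPM in Bhlhe22 replicates 1, 2 and 3. Every Bhlhe22 library lay far below every Vector library, and the spread within groups was small (73.7 ± 1.12 against 45.6 ± 2.11 CPM, SD, n = 3). Its log2 fold change was -0.69, with SE 0.073 (edgeR adjusted p = 0.0011), with a range of -0.72 to -0.65 over the fits that left out 1 library. Gusb (ENSMUSG00000025534) lies on the minus strand of chr5:129989011-130003049 (GRCm38), and no exon of another annotated gene overlaps its exons.

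Arsb removes the sulfate of N-acetylgalactosamine sulfate in dermatan and chondroitin sulfate. It had 67.3, 67.6 and 66.3 CPM in the Vector libraries and 39.2, 46.4 and 47.0 CPM in Bhlhe22 replicates 1, 2 and 3. The Vector libraries were nearly equal, and the lowest value was that of Bhlhe22 replicate 1. The log2 fold change was -0.60, with SE 0.092 (edgeR adjusted p = 0.0050), and -0.53 without Bhlhe22 replicate 1. Arsb (ENSMUSG00000042082) lies on the plus strand of chr13:93771630-93943016 and shares 39.9% of its exon length with Gm26527 and Gm47210 on the other strand. Its value is less certain than that of Gusb, because no source used here says whether counting took account of strand. Gm47210 had between 0 and 14 counts per library, where Arsb had at least 596, and no value of Gm26527 was used here.

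Hexa, the α subunit of β-hexosaminidase, which removes terminal hexosamines from glycans and gangliosides, moved the other way. It had 84.6, 80.4 and 85.1 CPM in the Vector libraries and 114, 96.01 and 99.9 CPM in Bhlhe22 replicates 1, 2 and 3, the highest in replicate 1. The groups did not overlap, and the log2 fold change was 0.31, with SE 0.084 (edgeR adjusted p = 0.041). Hexa shares 12.8% of its exon length with Tmem202 on the other strand, which had 3 to 17 counts per library.

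Among the members, the other enzymes of the dermatan and heparan pathway did not pass the test. Ids and Idua, the sulfatase and the glycosidase that act on iduronic acid, had log2 fold changes of -0.17 (SE 0.10) and -0.11 (SE 0.33). Idua could not be placed well: its values ran from 7.58 to 14.96 CPM among Vector libraries and from 6.64 to 13.9 CPM among Bhlhe22 libraries, so its 95% interval went from -0.88 to 0.66 on the log2 scale. The heparan enzymes Naglu and Sgsh had log2 fold changes of 0.15 (SE 0.11) and 0.02 (SE 0.12). The sialidase Neu1 went from 34.9 ± 1.46 to 40.4 ± 0.296 CPM without overlap (log2 fold change 0.21, edgeR adjusted p = 0.093). Glb1, the β-galactosidase, went from 54.4 ± 1.47 to 61.0 ± 2.85 CPM, also without overlap (log2 fold change 0.17, edgeR adjusted p = 0.16). The mannosidase Man2b1 had 52.8 ± 1.31 and 51.0 ± 3.05 CPM.

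**Figure D2:**
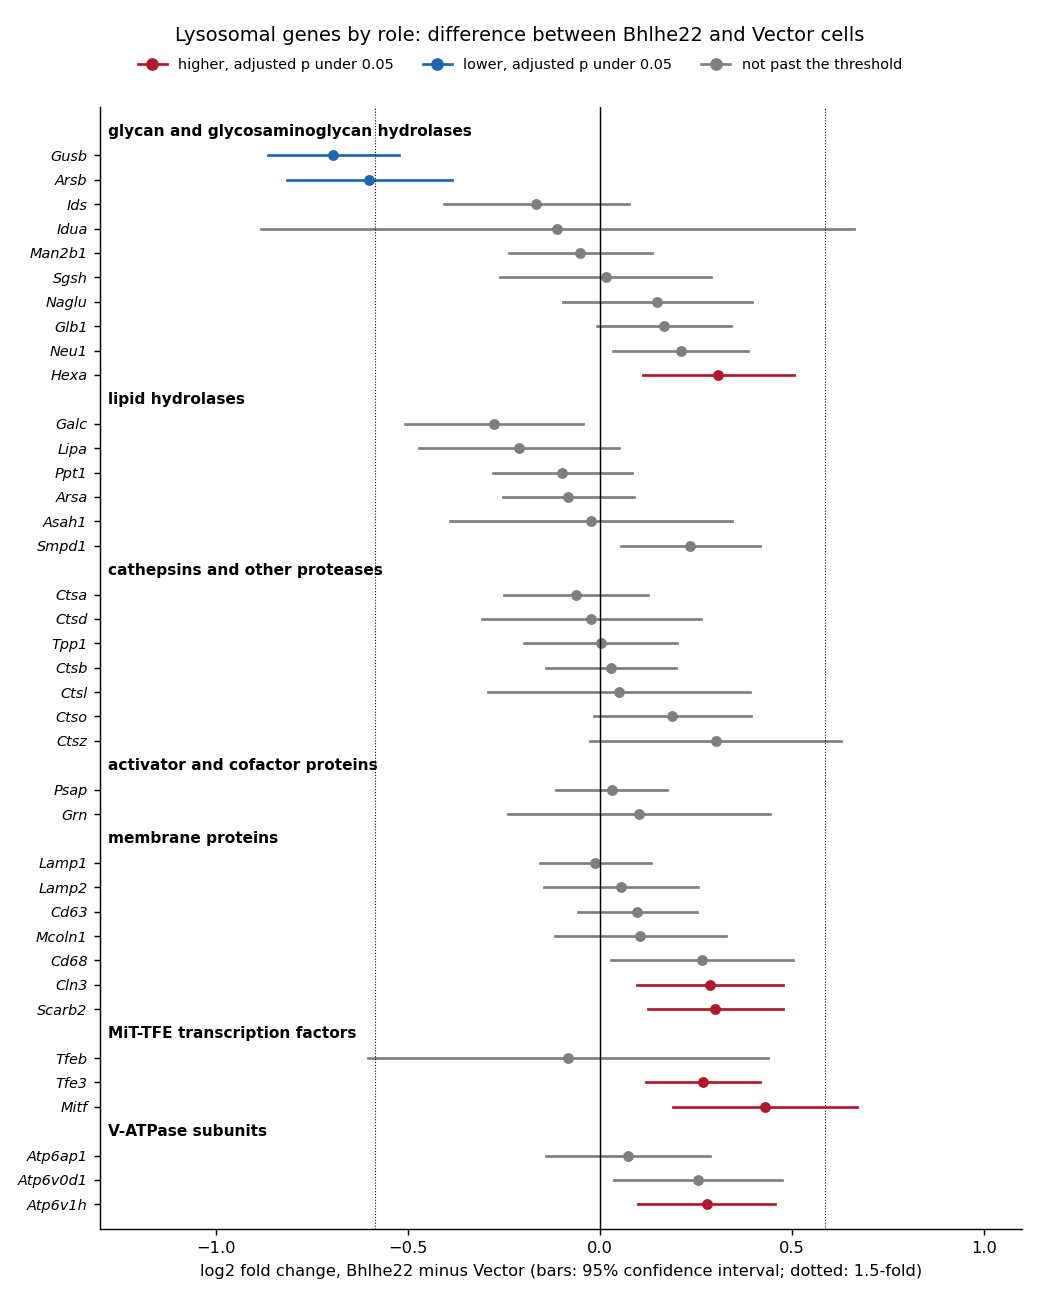
Log2 fold change (Bhlhe22 minus Vector) of the 38 tested members with its 95% confidence interval, grouped by role, with dotted lines at a 1.5-fold change. Gusb and Arsb lie apart on the left at -0.69 and -0.60, and 32 of the 38 intervals lie wholly between the dotted lines.

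Enzymes that degrade lipids or lipid-modified proteins showed no member past the threshold. Of 6 tested, 0 rose and 0 fell by edgeR, DESeq2 or limma-voom, with 1 higher and 1 lower at an unadjusted p under 0.05 in each. The higher one was Smpd1, the acid sphingomyelinase, at 34.8 ± 1.22 and 41.0 ± 1.51 CPM (log2 fold change 0.24, edgeR adjusted p = 0.073). The lower one was Galc, the galactosylceramidase, at 39.7 ± 1.77 and 32.7 ± 3.31 CPM (-0.28, edgeR adjusted p = 0.096). The most expressed per length, Asah1 (acid ceramidase), had 135, 179 and 126 CPM in the Vector libraries and 168, 130 and 135 CPM in the Bhlhe22 libraries. These ranges overlapped almost entirely, Vector replicate 2 and Bhlhe22 replicate 1 being the high ones. The acid lipase Lipa (log2 fold change -0.21, SE 0.11), the sulfatide sulfatase Arsa (-0.08, SE 0.072) and the thioesterase Ppt1 (-0.10, SE 0.077) were also below the threshold.

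Cathepsin genes ranged from abundant to wholly silent. Ctsf and Ctsh had 0 counts in all 6 libraries, which allows up to 0.119 to 0.197 CPM per library (3 counts, counting error only). Ctsk, the collagen-degrading protease of osteoclasts, had 2, 2 and 4 counts in the Vector and 0, 6 and 4 in the Bhlhe22 libraries, and Ctss, a protease of antigen-presenting cells, had 0 to 2 counts per library. These 4 members did not pass the filter and were not tested. Of the 7 proteases tested, 0 rose and 0 fell by edgeR, DESeq2 or limma-voom, and 0 had an unadjusted p under 0.05.

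Ctsd, the main aspartic protease, had 388, 449 and 446 CPM in the Vector libraries and 486, 418 and 360 CPM in the Bhlhe22 libraries. The range of the Bhlhe22 libraries took in that of the Vector libraries (log2 fold change -0.02, SE 0.12, 95% interval -0.31 to 0.26). The gene shares 34.4% of its exon length with Gm49369 on the same strand, so its count is less certain. Ctsb, a cysteine protease, was the most counted member, at 698 ± 8.10 and 713 ± 47.8 CPM (log2 fold change 0.03, 95% interval -0.14 to 0.20). Ctsl varied more among Vector libraries (557, 367 and 450 CPM) than between groups, and 26.8% of its exon length is shared with Gm47123 on the other strand.

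Ctsz, a carboxypeptidase, had 137, 128 and 146 CPM in the Vector libraries and 208, 150 and 149 CPM in the Bhlhe22 libraries. The groups did not overlap, but Bhlhe22 replicate 1 lay well above the other two (a log2 fold change of 0.30 with SE 0.14 and an edgeR adjusted p = 0.18). Ctsa, which shields Neu1 and Glb1 from degradation, had a log2 fold change of -0.06 (SE 0.080). The cysteine protease Ctso stood at 40.1 ± 1.36 and 45.7 ± 3.55 CPM (log2 fold change 0.19, edgeR adjusted p = 0.18). The tripeptidyl peptidase Tpp1 had 73.1 ± 4.48 and 73.2 ± 5.02 CPM. Psap, the precursor of the saposins that present sphingolipids to their hydrolases, varied little. It had 438, 461 and 453 CPM in the Vector libraries and 459, 456 and 467 CPM in the Bhlhe22 libraries (log2 fold change 0.03, 95% interval -0.11 to 0.17). Grn, the progranulin gene, ranged from 283 to 348 and from 296 to 421 CPM.

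**Figure D3:**
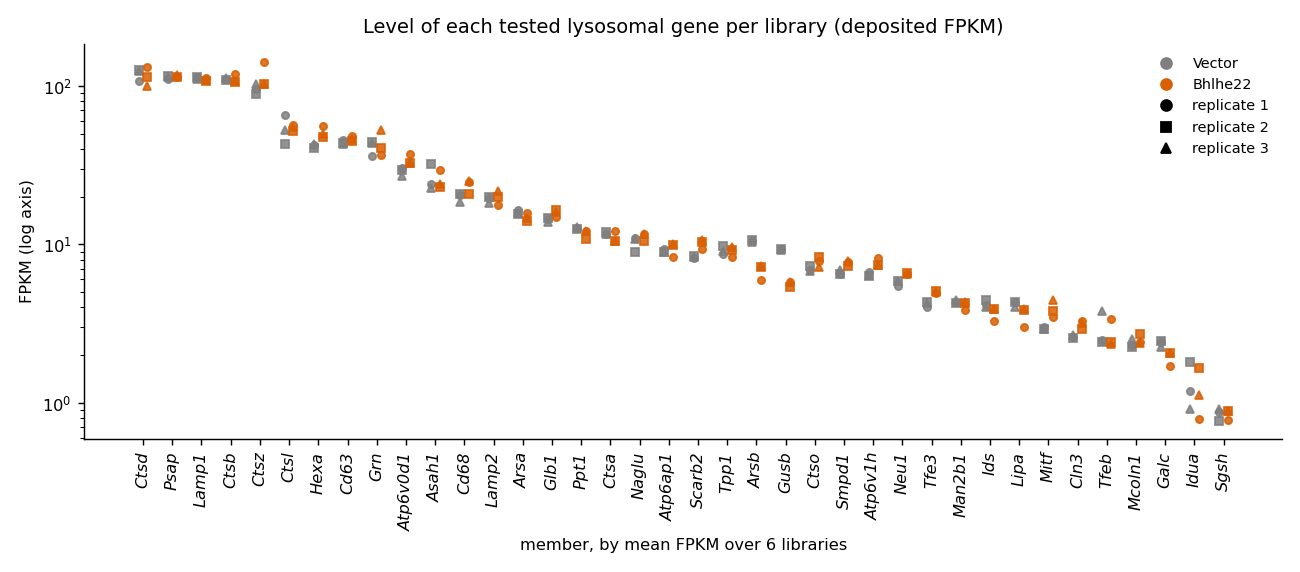
Deposited FPKM (log axis) of the 38 tested members in each library, ordered by their mean over the 6 libraries, Vector in grey and Bhlhe22 in orange. Ctsd, Psap, Lamp1, Ctsb and Ctsz form the top of the order at 106 to 118 FPKM, and Sgsh is at the bottom with 0.850 FPKM.

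Levels of different genes are compared here in FPKM, the authors' counts scaled to gene length and library size. Ctsd had the highest mean over the 6 libraries (118 FPKM), followed by Psap (114), Lamp1 (111), Ctsb (111) and Ctsz (106). Ctsd ran from 108 to 126 FPKM among Vector libraries and from 99.7 to 133 FPKM among Bhlhe22 libraries, a spread wider than the gaps between these 5 genes. The next were Ctsl (54.3 FPKM), Hexa (46.6), Cd63 (45.2) and Grn (42.3). The transcription factor genes were low, with 4.60 FPKM for Tfe3, 3.42 for Mitf and 2.80 for Tfeb. The members together took 0.484% to 0.486% of all counts in the Vector libraries and 0.479% to 0.507% in the Bhlhe22 libraries, so the groups overlapped in the share of RNA given to these genes.

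Membrane proteins had 2 increases, 0 decreases (with 0 lower at an unadjusted p under 0.05, and 0 by DESeq2 and limma-voom) and 5 members that did not pass the test. Scarb2, the carrier of glucocerebrosidase to the lysosome, had 54.7, 56.5 and 55.7 CPM in the Vector libraries and 64.2, 70.1 and 71.3 CPM in the Bhlhe22 libraries. All 3 Bhlhe22 values exceeded all Vector values (a log2 fold change of 0.30 with SE 0.075 and an edgeR adjusted p = 0.030). Cln3, the membrane protein lost in juvenile neuronal ceroid lipofuscinosis, had 29.7, 29.0 and 30.2 CPM against 38.0, 33.8 and 36.7 CPM (a log2 fold change of 0.29 with SE 0.081 and an edgeR adjusted p = 0.048). It shares 7.65% of its exon length with Apobr on the other strand, whose values (38.0 to 77.5 CPM in Vector and 41.2 to 71.2 CPM in Bhlhe22 libraries) overlapped between groups.

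Lamp1, the membrane protein gene with the highest FPKM among the members, was close to equal in all libraries. It had 322, 320 and 312 CPM in the Vector and 325, 311 and 310 CPM in the Bhlhe22 libraries (log2 fold change -0.01, 95% interval -0.16 to 0.13). Lamp2 (log2 fold change 0.05, SE 0.085) and the tetraspanin Cd63 (0.10, SE 0.066) overlapped between groups, as did Mcoln1, the calcium release channel of the lysosome (0.11, SE 0.094). Cd68, a macrophage-rich relative of the Lamp proteins, had 40.9 ± 2.65 and 49.2 ± 4.77 CPM (log2 fold change 0.27, edgeR adjusted p = 0.11). Of 16 macrophage and leukocyte markers, 9 had 0 counts in every library (Adgre1, Itgam, Lyz2, Fcgr1, Tyrobp, Spi1, Cd52, C1qa and C1qb), and the summed level of the list was 20.5 to 21.1 CPM in Vector and 18.5 to 19.7 CPM in Bhlhe22 libraries, nearly all of it from Cd14. Of the 6 osteoclast markers Calcr was at 0, Acp5 had 0 to 6 counts and Dcstamp 0 to 1 per library. Their sum was 33.5 to 38.6 CPM in Vector and 21.4 to 30.7 CPM in Bhlhe22 libraries, mostly from Nfatc1 and Ocstamp. Nfatc1 had 13.8 to 22.1 CPM over the 6 libraries (log2 fold change -0.17, edgeR adjusted p = 0.52). Ocstamp was lower, at 13.4 ± 1.82 CPM in Vector and 8.40 ± 1.23 CPM in Bhlhe22 cells (a log2 fold change of -0.67, edgeR adjusted p = 0.024). The part of Ocstamp in the results on the members was not tested.

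Among the MiT-TFE genes, 2 of 3 rose. Mitf, best known from pigment cells and osteoclasts, had 30.1, 29.4 and 29.4 CPM in the Vector libraries and 35.9, 38.7 and 45.0 CPM in Bhlhe22 replicates 1, 2 and 3. The Vector values were tightly grouped and the Bhlhe22 values spread out above them (a log2 fold change of 0.43 with SE 0.10 and an edgeR adjusted p = 0.026). Tfe3 had 83.1, 88.5 and 87.6 CPM against 103, 106 and 103 CPM, again without overlap (a log2 fold change of 0.27 with SE 0.063 and an edgeR adjusted p = 0.025). Tfeb itself had 22.8, 22.0 and 34.7 CPM in Vector and 31.5, 22.4 and 21.5 CPM in Bhlhe22 libraries. One library in each group was high and the ranges overlapped (log2 fold change -0.08, SE 0.22, 95% interval -0.60 to 0.44). The difference between these genes in their response was not tested.

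The 3 V-ATPase members all had fold changes above 1, and 1 of 3 passed the test. Fold changes were also above 1 in 9 of 14 further V-ATPase genes and in 7515 of all 14663 tested genes. Atp6v1h, a regulatory subunit of the cytoplasmic V1 part, had 77.0, 72.3 and 73.8 CPM in the Vector libraries and 97.1, 87.0 and 86.5 CPM in the Bhlhe22 libraries (a log2 fold change of 0.28 with SE 0.076 and an edgeR adjusted p = 0.042). Atp6v0d1, of the membrane-embedded V0 part, had 64.6, 62.4 and 57.2 CPM against 80.9, 69.7 and 69.2 CPM. Its groups did not overlap either (a log2 fold change of 0.26 with SE 0.093 and an edgeR adjusted p = 0.10). The accessory subunit Atp6ap1 had 59.5 ± 1.28 and 62.6 ± 6.10 CPM.

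The 95% interval excluded a 1.5-fold change for 27 of the 30 members below the threshold. For 32 of the 38 tested members (84.2%), called ones included, it excluded such a change in either direction, which held for 48.1% of all tested genes. Interval width depends on the number of counts, and the members were not matched to all genes in level. Whether they vary less than other genes was not tested. The members whose interval did not exclude a 1.5-fold change were Gusb, Arsb, Mitf, Ctsz, Tfeb and Idua.

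Promoters of the lysosomal set were searched for the E-box of the CLEAR element, as a description with no test. A search of both strands of the 250 bases before each gene start in RefSeq's promoter table (GRCm38.p6) covered 46 promoters of 38 members, and Asah1, Atp6v1h, Ctsb and Ctsh were not in it. GTCACGTG, the E-box CACGTG with flanking bases of the CLEAR element, was found in 9 of the 46 (19.6%), 1 each for Arsa, Cln3, Ctsa, Ctsd, Glb1, Lamp1, Mcoln1, Naglu and Sgsh, against 1.85% of all 32851 promoters. The shorter CACGTG, which every GTCACGTG contains, was in 11 (23.9%) against 6.02%. Of other E-boxes, CATATG was in 3 (6.52%) against 3.46%, and CAGATG in 4 (8.70%) against 14.4%. A match is a run of letters and does not show binding.

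These 5 windows show the match in the member that rose and in 4 that did not pass the test, each 5′ to 3′ on the strand of its gene, with the match in capitals. They lie at chr7:126583341-126583370 (Cln3, minus strand), chr9:114401017-114401046 (Glb1, plus), chr11:101070008-101070037 (Naglu, plus), chr8:13159122-13159151 (Lamp1, plus) and chr8:3500435-3500464 (Mcoln1, plus).
Cln3: tcacgggtactGTCACGTGacccccaacct
Glb1: gctgcttctgaGTCACGTGgcctacagagg
Naglu: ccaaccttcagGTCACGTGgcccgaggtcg
Lamp1: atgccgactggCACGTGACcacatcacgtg
Mcoln1: gggtcgcgcttGTCACGTGttcagttcagg

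Lamp1 has the match in reverse orientation. In Cln3 the printed site also reads as a match on the other strand, overlapping the one in capitals, and Mcoln1 holds a second match that is not shown. The centre of the printed match lies 119 bases before the start used in RefSeq's promoter table in Cln3, 46 in Glb1, 71 in Naglu, 24 in Lamp1 and 69 in Mcoln1. The GENCODE gene models start elsewhere for some. Cln3 spans chr7:126571207-126585817 there, so its window lies inside the gene. Naglu starts at chr11:101070012, before its match, and Mcoln1 at chr8:3500457, inside its window. Of the 9 members with a match, 1 rose (Cln3), 0 fell (edgeR) and 8 did not pass the test, and their log2 fold changes ran from -0.08 to 0.29 with a median of 0.02. Of the 26 tested members with a promoter but no match, 4 rose and 2 fell, with a median of 0.06. Both Gusb and Arsb were among those without a match, as were Tfe3, Mitf, Scarb2 and Hexa.

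Genes around the members were read from lists of 132 other genes of the lysosome and its control. These lists were written with earlier results of these data known, so their shares are a description and not independent support. Of the 125 tested, 22 rose (17.6%) and 5 fell (4%), with a median log2 fold change of 0.06, beside 10.4% higher, 9.28% lower and a median of 0.01 over all tested genes. With library size alone 8 fell, and with DESeq2 13 fell. The counts depended on the library set: 8, 12 and 11 rose without Vector replicates 1, 2 and 3, and 2, 3 and 2 fell without Vector replicates 1 and 3 and Bhlhe22 replicate 2. Without Bhlhe22 replicate 1, 29 rose and 15 fell. Over all tested genes the share past the threshold was 31.3% in that fit. It was 9.05% to 11.4% in the other fits named here that left out 1 library. With library size alone it was 19.5%, and with DESeq2 12.5%, there of 26394 genes. Of the 26 genes of these lists picked by smallest adjusted p, 10 passed in all 6 fits with a library left out: Cln8, Naaa, Scpep1, Ctsc, Cpq, Gpr137b, Lmbrd1, Tcirg1, Rheb and Gpnmb. The other 16 did not pass without Vector replicate 1.

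**Figure D4:**
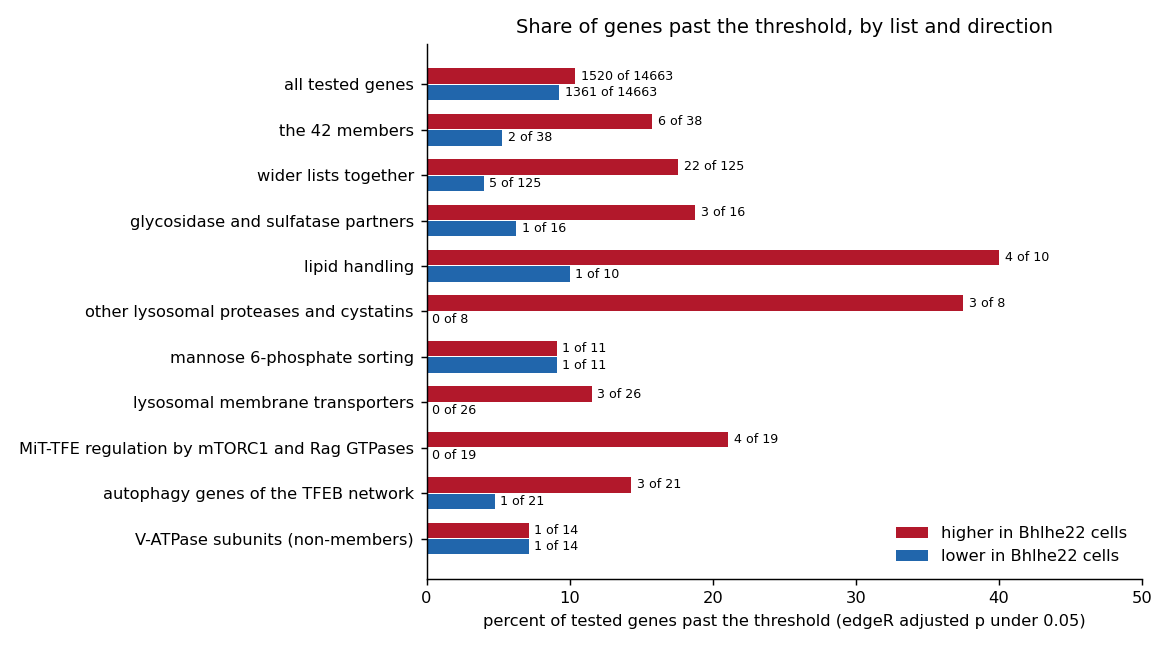
Percent of tested genes past the threshold (edgeR adjusted p under 0.05), higher (red) and lower (blue) in Bhlhe22 cells, for all tested genes, the 42 members and the lists of other lysosomal genes, with the counts beside the bars. The members have 6 higher and 2 lower of 38, beside 10.4% and 9.28% of all tested genes. The lists were written with earlier results of these data known.

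Of 16 partner glycosidases and sulfatases, 3 rose and 1 fell. Hgsnat, the acetyltransferase of heparan breakdown, had a log2 fold change of 0.40, Gaa, the glycogen-degrading α-glucosidase, of 0.35 and Manba, the β-mannosidase, of -0.27.

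Of 10 lipid genes 4 rose and 1 fell. Cln8, which helps export lysosomal enzymes from the endoplasmic reticulum, had the greatest rise among the genes of these lists that passed the test, from 23.7 ± 0.642 to 53.3 ± 2.47 CPM (a log2 fold change of 1.17 with SE 0.079 and an edgeR adjusted p = 2.1e-04). Naaa, an amidase of N-acylethanolamines, went from 24.4 ± 1.25 to 42.3 ± 6.01 CPM (0.80). The phosphatase Acp2 (0.35) and the cholesterol transporter Npc1 (0.44, named after its value was seen) also rose, and Gm2a, the ganglioside activator protein, fell (-0.41), all in log2 fold change.

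Of 8 proteases and cystatins outside the set, 3 rose and 0 fell (edgeR). That is 37.5% higher, beside 10.4% higher and 9.28% lower of all tested genes. Scpep1, a serine carboxypeptidase, went from 286 ± 7.50 to 404 ± 14.6 CPM (log2 fold change 0.50). The others were Ctsc, the dipeptidyl peptidase that activates granule proteases (0.51), and the carboxypeptidase Cpq (0.49). Whether this list differs from the 7 tested proteases of the set, of which 0 passed, was not tested.

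Of 26 membrane transporters and related proteins 3 rose and 0 fell (edgeR), namely Gpr137b (log2 fold change 0.73), Lmbrd1, of cobalamin export (0.54), and Laptm4a (0.42). Among 14 further V-ATPase genes Atp6v1g1 rose (0.63) and Tcirg1, a V0 subunit, fell from 106 ± 5.47 to 76.9 ± 3.18 CPM (-0.47). Of 11 genes of mannose 6-phosphate sorting, the adaptor Gga1 rose (0.44) and its relative Gga2 fell (-0.44).

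Of 19 genes that control the MiT-TFE factors through mTORC1 and calcineurin, 4 rose and 0 fell (edgeR). Rheb, the GTPase that activates mTORC1, went from 187 ± 5.12 to 263 ± 20.1 CPM (a log2 fold change of 0.49 with SE 0.077 and an edgeR adjusted p = 0.0056). Rraga, a Rag GTPase, had a log2 fold change of 0.38, Lamtor3, of the Ragulator scaffold, of 0.40 and Ppp3ca, the calcineurin catalytic subunit, of 0.44. Of 21 autophagy genes of the TFEB network 3 rose and 1 fell. The receptor gene Sqstm1 had 2838, 2361 and 1440.2 CPM in Bhlhe22 replicates 1, 2 and 3 against 1035 to 1132 CPM in Vector libraries (log2 fold change 1.04, edgeR adjusted p = 0.019), and with a library left out it passed in a single case, without Bhlhe22 replicate 3. Wipi2 (0.37) and Vps8 (0.43) rose less, and Gpnmb, a membrane glycoprotein known as an MiT-TFE target, fell from 49.8 ± 1.17 to 32.7 ± 2.01 CPM (-0.61).

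**Figure D5:**
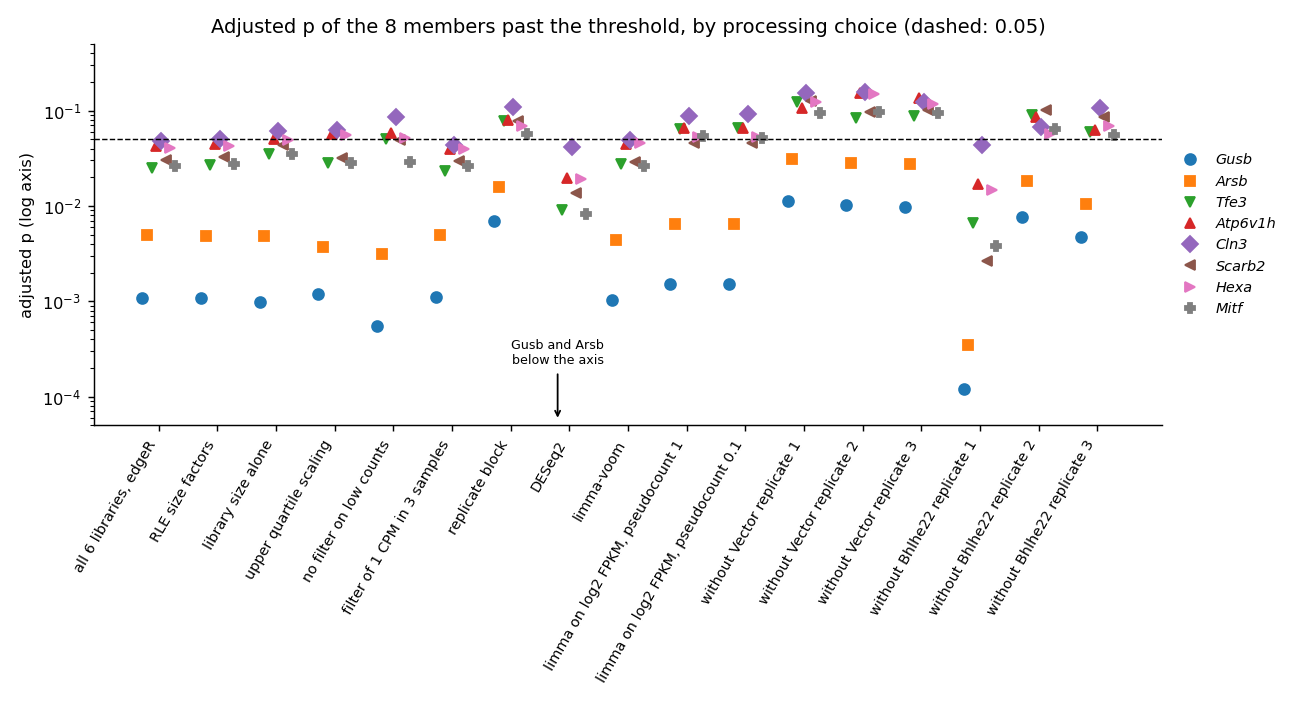
Adjusted p (log axis, dashed line at 0.05) of the 8 members past the threshold with all 6 libraries, under each other processing choice and without each library. Gusb and Arsb stay below the line in all columns, with the DESeq2 values of 6.8e-13 and 2.0e-06 below the axis, whereas the 6 higher members cross it in several.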

How the data were processed

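RNA-seq counts and FPKM of 6 RM-1 libraries were taken from a single deposited table. The raw counts per gene were made by the authors; per the submitters' processing notes the build was GRCm38 and the tools included StringTie 1.3.4b, HISAT2 2.1.0, edgeR and CASAVA 1.8, without saying which made which column. No source used here gives the annotation release or strandedness. The deposited FPKM values were made by the authors from the same counts: in 10435 of 10435 genes with at least 100 counts per sample, both gave the same gene length in all samples within 0.01%.

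Counts were tested with edgeR 4.0.16 in R 4.3.3 (TMM scaling, filterByExpr with minimum count 10 and total 15, robust quasi-likelihood fit, Benjamini-Hochberg adjustment over all tested genes at 0.05, no covariate), after a check on simulated data. Intervals are 95%. Members and lists were chosen with earlier results of these data known, and named genes were all called members, the MiT-TFE genes, the most expressed member per role and up to 4 called genes with the smallest adjusted p per further list. Of 133 list symbols, 132 were in the table. Alternatives were DESeq2 1.42.0, limma 3.58.1 (voom, and log2 FPKM with pseudocounts of 1 and 0.1), RLE, upper quartile and library size scaling, other filters, a replicate block and leaving out each library. Gene models came from GENCODE M21, whose coordinates were those of the table for all 42 members. The bases after the start were found in a GENCODE transcript of the same gene for 37 of 46 promoters. Tables and plots used Python 3.11.15, pandas 2.3.3 and matplotlib 3.10.9. Values of some genes of the lists are not reported here.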

Additional observations from a re-analysis of the deposited data

How the results depend on the processing

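Gusb and Arsb were lower and past the threshold under all 16 alternatives (log2 fold change -0.72 to -0.63 and -0.65 to -0.53), and the number of lower members was 2 in each. The number of higher members was 3 with upper quartile scaling, 2 with no filter on low counts, 1 with limma on log2 FPKM at either pseudocount, and 0 to 7 when 1 library was left out, while each of the 6 kept its direction. With the replicate block it was 0 (8 at an unadjusted p under 0.05). No label ties a replicate number to a shared culture or day. The deviations of same-numbered libraries correlated at 0.016 to 0.029, within the -0.078 to 0.063 of the other pairs. Such values cannot show whether the samples are paired. The block also lowered the counts over all genes from 1520 to 1086 higher and from 1361 to 993 lower. Without 1 library, 715 to 2345 genes were higher and 633 to 2337 lower over the whole table, and 8 to 29 higher and 2 to 15 lower in the wider lists. There 8 were lower with library size alone and 13 with DESeq2. Fewer samples enter the fits that leave out 1; for other changes the cause was not tested.

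Signs turned for members near 0, none past the threshold in either direction. Tpp1 was at -0.00357 with RLE, -0.0198 with library size alone, -0.0120 with upper quartile scaling, -0.00105 with the filter of 1 CPM, -0.00488 with DESeq2, and -0.0190 and -0.0209 with limma on log2 FPKM at pseudocounts of 1 and 0.1. Sgsh was at -0.00629 with library size alone and -0.00358 and -0.00647 with limma on log2 FPKM. Leaving out 1 library, the log2 fold changes ran from -0.040 to 0.049 for Tpp1, -0.058 to 0.071 for Sgsh, -0.43 to 0.20 for Idua, -0.15 to 0.14 for Asah1, -0.034 to 0.062 for Ctsb, -0.14 to 0.081 for Ctsd, -0.087 to 0.21 for Ctsl, -0.057 to 0.20 for Grn, -0.041 to 0.0012 for Lamp1, -0.010 to 0.11 for Lamp2 and -0.28 to 0.16 for Tfeb. Depth limits Ctsf, Ctsh, Ctsk and Ctss, with at most 6 counts per library.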

Other observations

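For Tfeb, Idua and Asah1 among the members, the high libraries came 1 from each group. Tfeb was high in Vector replicate 3 (34.7 CPM) and Bhlhe22 replicate 1 (31.5 CPM), and Apobr, which shares exons with Cln3, was high in the same libraries (77.5 and 71.2 CPM). Idua was high in Vector replicate 2 (14.96 CPM) and Bhlhe22 replicate 2 (13.9 CPM), and Asah1 in Vector replicate 2 (179 CPM) and Bhlhe22 replicate 1 (168 CPM). These were noticed in the values and were not tested.

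Ctsb, Ctsd and Ctsl together held 30.7% to 34.01% of the members' counts over the 6 libraries, so a sum over the set rests largely on 3 genes, of which 0 passed the test (edgeR).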
